A study of Homo sapiens with 8 samples.

Results

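The stretch of chromosome 8 that holds MYC and the gene-poor sequence past it was examined for called binding regions of SMAD2 and TEAD4. All called regions with at least 1 bp between 128000000 and 130800000 on the human genome build hg19, a window of 2.8 Mb, were taken as members. They numbered 1088 of the 972037 regions in 3 lists: for DMSO cells 459 of 420548 SMAD2 regions and 314 of 289380 TEAD4 regions, and for SB431542 cells 315 of 262109 TEAD4 regions. The window was chosen by its position, since it holds MYC (128748315 to 128753680), and selected on the row of 1 TEAD4 region, in row 5 of the DMSO list. The place of that region in its list, and what it adds to a count of high rows, is therefore a description and not a result.

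The established line WA09, human embryonic stem cells on Matrigel in medium conditioned by mouse embryonic fibroblasts, was used. Cells were kept for 4 h in DMSO, the solvent, or in 10 µM SB431542, a small molecule that blocks the kinase activity of the activin, Nodal and TGF-β type I receptors. Chromatin was fixed with formaldehyde, sheared by sonication and precipitated with an antibody against SMAD2 or TEAD4 before sequencing (ChIP-seq). There was 1 library per group, so no value has a replicate error, no test was possible, and 95% Wilson intervals on shares cover counting error only. The input and IgG libraries, and the SMAD2 library of SB431542 cells, were not analysed here.

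MYC encodes a transcription factor that drives growth and proliferation and supports self-renewal of pluripotent cells. Distal enhancers of MYC have been described in many cell types in the noncoding sequence on both sides of the gene. TEAD4 binds DNA and recruits the coactivators YAP and TAZ, the effectors of the Hippo pathway. SMAD2 is phosphorylated by activin, Nodal and TGF-β receptors, enters the nucleus with SMAD4 and is brought to its sites by other DNA-binding proteins. In the RefSeq annotation of GRCh38.p14, used for gene names and order only, the noncoding RNA gene PVT1 is the first annotated gene after MYC. No protein-coding gene stands between MYC and GSDMC, which encodes a gasdermin, and the 21 genes annotated between them are 11 long noncoding RNAs, 6 miRNAs and 4 pseudogenes. The nearest protein-coding gene before MYC is POU5F1B, a retrogene copy of POU5F1. The coordinates of these neighbours on hg19 were not used, so no region below is placed in or outside them.

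The lists hold a chromosome, a start and an end per region and no height or score. The row of a region in its list was read as the authors' ranking, strongest first, which no header or label states. In each list the rows came in runs in which chromosome name and start descended: 95.2% of SMAD2 rows, 98.8% of TEAD4 DMSO rows and 97.4% of TEAD4 SB431542 rows followed the row before them in this way. Within such a run the order is that of position and ranks nothing, so a row is known as a rank only up to the ends of its run. Runs were short near the head of a list and longer further down. The runs that hold the window's TEAD4 DMSO regions of the first 20000 rows spanned 2 to 1914 rows (median 283), those of SMAD2 1 to 834 (median 33) and those of TEAD4 in SB431542 2 to 1005 (median 8). The DMSO lists lie on a 50 bp grid of starts and only 1.97% of the SB431542 starts do, so treatment and the way the list was made cannot be told apart in any comparison of the TEAD4 lists.

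Regions from the head of each list were counted as a share of the window's regions and set beside the share of the list. The window was selected on a high row of the TEAD4 DMSO list, so the TEAD4 shares only describe it. Of the 314 TEAD4 DMSO regions, 31 (9.87%, interval 7.04 to 13.7%) stood in the first 20000 rows, which hold 6.91% of that list. Without the region that chose the window the count was 30 of 313 (9.58%, 6.80 to 13.4%), an interval that includes the share of the whole list. Among the first 5000 rows the window had 13 TEAD4 DMSO regions (4.14%, 2.44 to 6.95%), against 1.73% for the list, and 12 without the chosen region (3.83%, 2.21 to 6.58%). For TEAD4 in SB431542, 28 of 315 regions (8.89%, 6.22 to 12.5%) were in the first 20000 rows, against 7.63% of that list, and 12 were in the first 5000 (3.81%, 2.19 to 6.54%, against 1.91%). For SMAD2, 18 of 459 regions (3.92%, 2.49 to 6.11%) were in the first 20000 rows, against 4.76% of the list. In the first 5000 there were 3 (0.654%, 0.223 to 1.90%, against 1.19%). Both SMAD2 intervals include the share of the list.

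Counted over all rows of a list, called regions were also somewhat denser in the window than on chromosome 8 as a whole. SMAD2 had 164 regions per Mb in the window, 148 on chromosome 8 and 142 over the chromosomes examined, with Y left out. TEAD4 in DMSO had 112, 102 and 98.2 regions per Mb, and TEAD4 in SB431542 had 112.5, 88.4 and 88.9. Restricted to the first 20000 rows, the densities were 11.1 per Mb in the window against 6.90 on chromosome 8 for TEAD4 in DMSO, 10.0 against 6.87 for TEAD4 in SB431542, and 6.43 against 7.25 for SMAD2. Chromosome 8 was also divided into stretches of the same length. Of the 50 others, 1 held at least as many first-20000 TEAD4 DMSO regions as the window (range 0 to 34, median 19). For TEAD4 in SB431542 6 did (0 to 39, median 17.5) and for SMAD2 33 did (0 to 31, median 20). The window's TEAD4 counts, 31 and 28, include the region that chose it and its partner (30 and 27 without them). The other stretches were not chosen for a high row, so the TEAD4 densities and placings of high rows only describe the window. Median widths were 149, 199 and 149 bp in the window for SMAD2 and for TEAD4 under DMSO and SB431542, against 149, 199 and 145 bp over the lists.

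**Figure D1:**
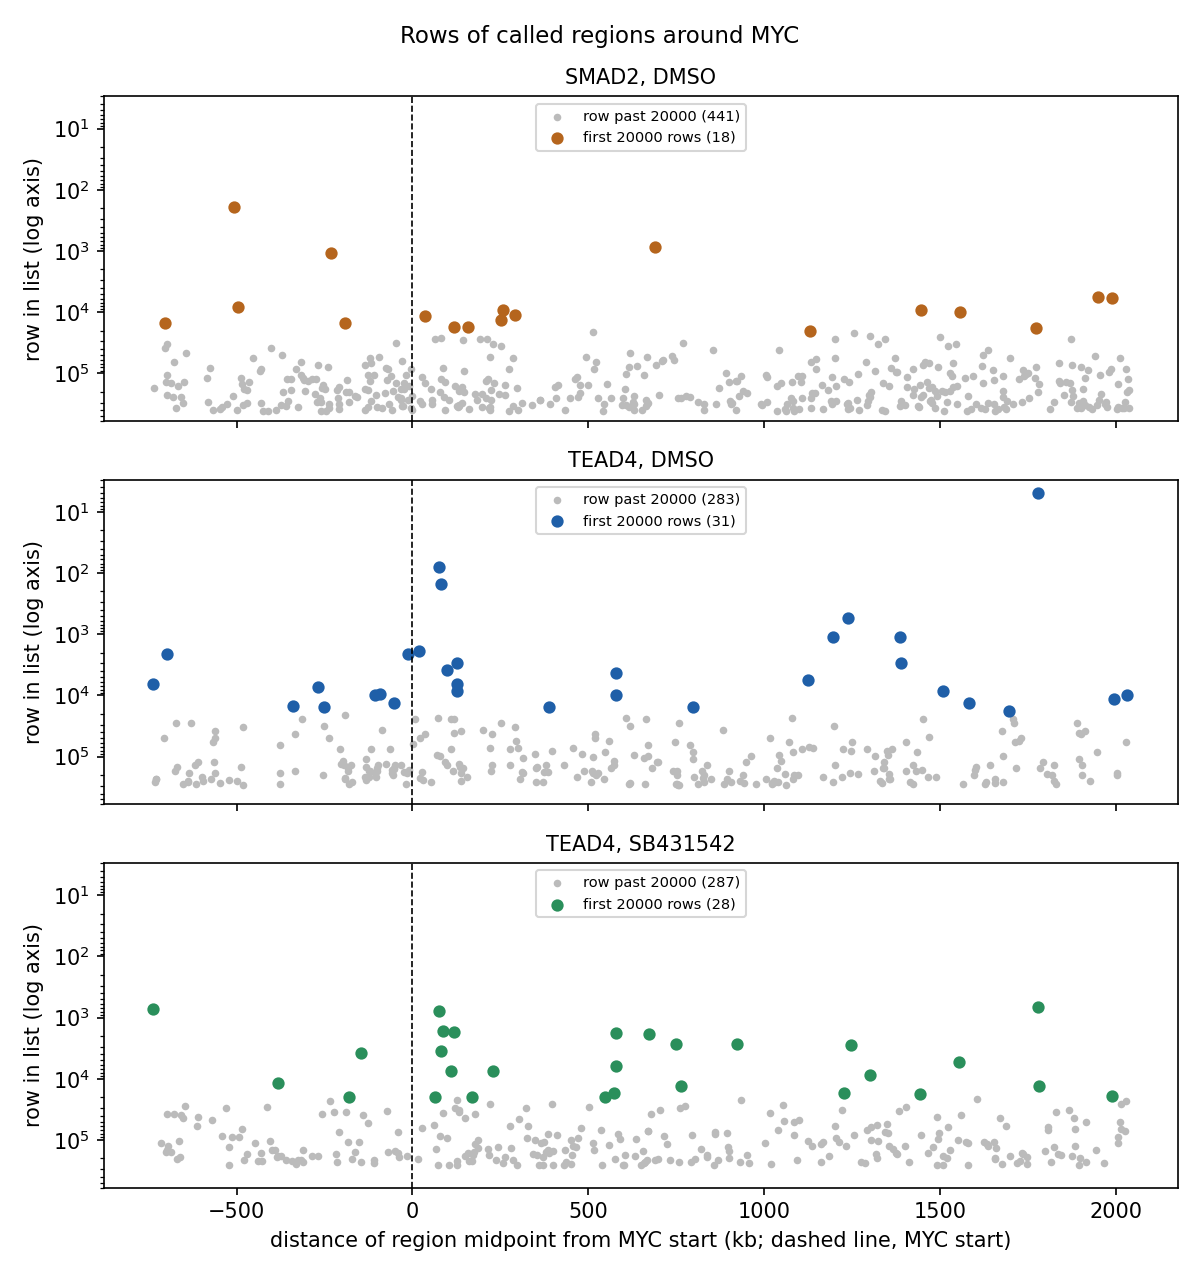
Row in its list (log axis, low rows at the top) of each called region of the window against the distance of its midpoint from the MYC start in kb, with a panel for each list; coloured points are in the first 20000 rows. The 31 coloured TEAD4 points of DMSO cells include a group 74.4 to 128 kb past the MYC start and the region of row 5 at 1.78 Mb, whereas the 18 SMAD2 points are spread along the window.

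The limit of 20000 rows fell inside a run in every list, and the window had 1 region in that run for SMAD2 and 1 for TEAD4 in SB431542, both before the limit. The last SMAD2 region inside it was row 19965 (129878301 to 129878499, 199 bp) and the next was row 21433 (129262751 to 129262949, 199 bp). For TEAD4 in DMSO these were row 17877 (130444451 to 130444749, 299 bp) and row 20610 (128555651 to 128556099, 449 bp), and for TEAD4 in SB431542 row 19976 (129295660 to 129295857, 198 bp) and row 21635 (130354979 to 130355169, 191 bp). Widths on both sides of the limit were thus alike, except that the TEAD4 DMSO region outside it was wider than the one inside.

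MYC itself spans 5.37 kb. The window had 164 SMAD2, 112 TEAD4 DMSO and 112.5 TEAD4 SB431542 regions per Mb. At these densities few or no regions would fall in so short a span, so low counts there are not a trait of the gene. TEAD4 in DMSO had 1 region within the gene, at 128749051 to 128749299 (249 bp, row 62604), 0.736 kb past the gene start. Neither SMAD2 nor TEAD4 in SB431542 had a region in the gene. The nearest SMAD2 region lay 1.17 kb before the start, at 128747001 to 128747149 (row 233514), and the nearest past the start was 20.6 kb away (row 279892). The nearest TEAD4 regions of SB431542 cells lay 16.0 kb before the start (128732156 to 128732314, row 185431) and 14.4 kb past it (128762704 to 128762841, row 202769). All of these stood past row 20000, and no list had a region of its first 20000 rows within 10 kb of the gene. Such regions numbered 6.43 per Mb of the window for SMAD2, 11.1 for TEAD4 in DMSO and 10.0 for TEAD4 in SB431542. At these densities too, few or none would fall so near the gene.

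The TEAD4 regions of high rank nearest to MYC flanked it. On the upstream side lay the region at 128735601 to 128736099 (499 bp, row 2100), 12.2 kb before the gene start, and on the other side the region at 128766551 to 128766849 (299 bp, row 1903), 18.2 kb past it. Neither overlapped a region of TEAD4 in SB431542, the nearest being 3.29 and 3.71 kb away. Most rows of this rank had no such partner either, since 19.8% of rows 1001 to 5000 of the whole DMSO list had one. A SMAD2 region stood 0.151 kb from the region of row 2100 (128735201 to 128735449, row 275915) without touching it. Within 100 kb on either side of the gene there were 36 TEAD4 DMSO regions, 7 of them in the first 20000 rows, 20 TEAD4 SB431542 regions, 4 of them in the first 20000, and 45 SMAD2 regions, of which 1 was. Over the chromosomes examined, first-20000 regions numbered 6.79 per Mb for TEAD4 in DMSO, 6.71 for TEAD4 in SB431542 and 6.77 for SMAD2. The counts around the gene are small, and the difference between the lists was not tested.

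The densest group of high TEAD4 rows in DMSO cells lay 74.4 to 128 kb past the MYC start. A stretch of 141 kb from 128735601 to 128876299 was delimited after the values were seen. It includes this group, MYC and the flanking regions of rows 2100 and 1903. There the DMSO list had 8 regions of its first 20000 rows and 6 of its first 5000, against 23 and 7 in the remainder of the window. TEAD4 DMSO regions of all rows numbered 192 per Mb there against 108 elsewhere in the window. The stretch begins and ends on high TEAD4 DMSO regions and counts them, so this difference is in part built in. SMAD2 had 178 per Mb against 163, and TEAD4 in SB431542 had 128 against 112. The region at 128822301 to 128823099 (row 80) was 74.4 kb past the MYC start and, at 799 bp, was the widest of the 314. The next widest, with 749 bp, lay at 128830001 to 128830749 (row 152), 82.1 kb past the start. They were followed by 128845351 to 128845749 (399 bp, row 3826) and by a close group of 3 at 128874101 to 128874399 (row 8545), 128875001 to 128875299 (row 2980) and 128875701 to 128876299 (row 6550).

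TEAD4 regions of SB431542 cells were also concentrated there. The 100 kb from 128800000 to 128899999 held 6 first-20000 regions in each TEAD4 list, the most of the window's 28 bins of that length in both. Over all chromosomes but Y, 14 of 30360 bins (0.0461%) reached 6 in the DMSO list, 98 (0.323%) in the SB431542 list and 7 (0.0231%) in both. The count of 6 was taken from this bin, so these shares only describe it. In SB431542 cells the 6 were at 128812460 to 128812657 (row 19618), 128822340 to 128822814 (row 785), 128830543 to 128830799 (row 3541), 128835346 to 128835576 (row 1635), 128857843 to 128858040 (row 7477) and 128867320 to 128867733 (row 1755). The regions of rows 785 and 3541 overlapped the DMSO regions of rows 80 and 152, by 475 and 207 bp. That of row 1755 overlapped a 699 bp DMSO region just beyond the limit, row 24139. The other 3 had no DMSO partner and lay 6.39, 4.22 and 0.21 kb from the nearest DMSO region. Conversely, DMSO rows 8545 and 2980 had no partner, and rows 3826 and 6550 had one only at rows 91343 and 21969.

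**Figure D2:**
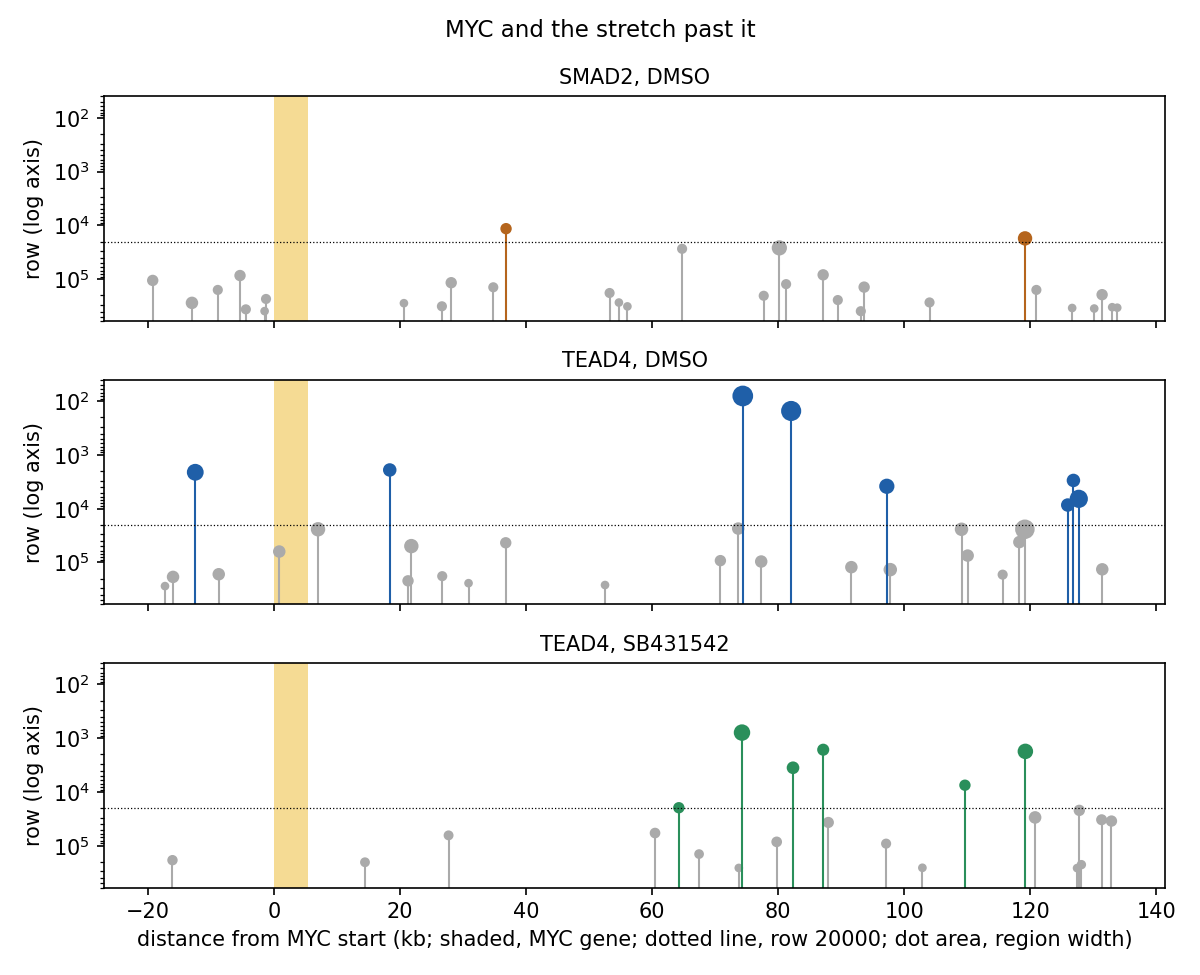
Called regions from 20 kb before MYC to just beyond the close group of 3 TEAD4 regions, each as a stem that ends at its row (log axis) and a dot with an area proportional to its width; the shaded band is MYC, the dotted line is row 20000 and coloured stems are above it. High rows of both TEAD4 lists stand between 64.2 and 128 kb past the start, led by rows 80 and 152 in DMSO and row 785 in SB431542, and MYC itself holds only the DMSO region of row 62604.

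The region that chose the window lay 1.78 Mb past the MYC start. It spanned 130527801 to 130528249 (449 bp, row 5 in DMSO), and its partner in SB431542 cells at 130527843 to 130528189 (347 bp, row 670) lay wholly inside it, with midpoints 9 bp apart. No SMAD2 region overlapped it. The nearest, at 130527551 to 130527649 (99 bp, row 203549), ended 0.151 kb away. Within 10 kb the DMSO list had only 1 other TEAD4 region (130532701 to 130532899, row 151856), and the SB431542 list had 1 more in its first 20000 rows, at 130530028 to 130530225 (row 13307). Within 50 kb there were 7 other TEAD4 DMSO regions, none in the first 20000 rows.

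The other regions of the first 5 DMSO rows had 3 to 13 TEAD4 DMSO regions within 50 kb and 0 to 3 of high rank. Row 1 (chromosome 4, 113573351 to 113573799) had 2 such neighbours and row 4 (chromosome 1, 205270251 to 205270949) had 3, while row 2 (chromosome 19, 2462901 to 2463499) and row 3 (chromosome 1, 203954151 to 203954599) had 0. The region of row 5 thus had no high TEAD4 row within 50 kb, like rows 2 and 3 and unlike the group in the stretch past MYC. Over the chromosomes examined the first 20000 rows had 6.79 TEAD4 DMSO regions per Mb. At this density few or none would fall within 50 kb, so the lack of high neighbours is not a trait of the region. In the SB431542 list the partners of rows 1 to 5 were rows 460, 435, 330, 368 and 670, so that of the window came last of these. Rows 2 and 3 each overlapped a low SMAD2 row (416277 and 84741), and rows 1, 4 and 5 overlapped none.

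Other TEAD4 regions of high rank in DMSO cells were scattered over the window. Between 1125 and 1388 kb past the MYC start lay 129873101 to 129873549 (row 5530), 129944151 to 129944499 (row 1129), 129987851 to 129988299 (row 553), 130133701 to 130134049 (row 1118) and 130136501 to 130136799 (row 2979). None of these 5 had a partner in SB431542 cells, and the nearest SB431542 regions were 0.568 to 6.03 kb away. Over the whole DMSO list 68.8% of rows 1 to 1000 had one, so row 553 lacked a partner that most rows as high had. For the ranges of the others, 19.8% of rows 1001 to 5000 and 10.3% of rows 5001 to 20000 had one, so most rows there had none. At 579 kb past the start, the region at 129326851 to 129327149 (row 4359) had the SB431542 partner 129326900 to 129327128 (row 1822), and the DMSO region at 129328151 to 129328349 (row 9959) next to it had none. Further from the gene than the close group there were also 129136601 to 129137149 (row 15528), 129546301 to 129546649 (row 15527), 130256451 to 130256699 (row 8390), 130330501 to 130330699 (row 13208), 130444451 to 130444749 (row 17877), 130743551 to 130743849 (row 11427) and 130780151 to 130780499 (row 9958). Of these 7 only row 8390 had an SB431542 partner, and that stood at row 180694.

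On the upstream side of MYC the DMSO list had 9 TEAD4 regions of high rank. Over the whole list 15.1% of the first 20000 rows had an SB431542 partner, so most high rows lacked one. The farthest, at 128011001 to 128011249 (row 6415), had the SB431542 partner 128010937 to 128011255 (319 bp, row 736), which ranked higher than any other SB431542 region of the window but that of row 670. The region at 128050951 to 128051249 (row 2101) had partners in both other lists, a SMAD2 region (128050951 to 128051099, row 32764) and a TEAD4 region of SB431542 cells (128050891 to 128051074, row 37671). The other 7 had no SB431542 partner: 128407051 to 128407449 (row 14776), 128479051 to 128479449 (row 7412), 128497901 to 128498149 (row 15529), 128641901 to 128642199 (row 9960), 128657151 to 128657449 (row 9505), 128694701 to 128694949 (row 13209) and the region of row 2100 described above. Rows 15527 to 15529 lie in 1 run from row 15386 to row 17085, and rows 9958 to 9960 in 1 run from row 9859 to row 10921, so that the order within each triple is that of position.

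The remaining TEAD4 regions of high rank in SB431542 cells were mostly without a DMSO partner. The same holds for the whole SB431542 list, where 15.1% of the first 20000 rows had one. Upstream of MYC they were 128365909 to 128366101 (row 11839), 128568276 to 128568473 (row 19785) and 128602666 to 128602872 (row 3870), none with a partner. Past the dense bin came 128917995 to 128918192 (row 19617), 128976123 to 128976320 (row 7476), 129295660 to 129295857 (row 19976), 129320846 to 129321037 (row 17093), 129326112 to 129326507 (row 6107), 129420234 to 129420489 (row 1870), 129497932 to 129498129 (row 2700), 129512853 to 129513109 (row 13386) and 129672371 to 129672570 (row 2682). Of these 9, rows 19976 and 17093 overlapped DMSO regions, at rows 85458 and 135979. Further out lay 129974581 to 129974770 (row 17190), 129994917 to 129995424 (508 bp, row 2766), 130050278 to 130050445 (row 8573), 130192228 to 130192404 (row 17748), 130303847 to 130304044 (row 5425) and 130737061 to 130737348 (row 19174). The region of row 2766 was the widest of the 315, and its whole length lay within a DMSO region of row 82186. The other 5 had no DMSO partner. Over its first 20000 rows the SB431542 list had a median width of 199 bp in the window and the DMSO list 299 bp.

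The first overlap comparison asked how many TEAD4 regions of DMSO cells were called again in SB431542 cells. Of the 314 regions, 29 (9.24%, 6.51 to 12.9%) overlapped an SB431542 region by at least 1 bp, against 5.69% of the whole DMSO list. The share was higher among high rows: 9 of the 31 first-20000 regions (29.0%, 16.1 to 46.6%) had a partner, against 15.1% over the list. Without the region that chose the window, 8 of 30 did (26.7%, 14.2 to 44.4%), an interval that includes the share of the list. By rows, the counts were 3 of 4 up to row 1000 (68.8% over the list), 3 of 9 from row 1001 to 5000 (19.8%), 3 of 18 from row 5001 to 20000 (10.3%) and 20 of 283 past row 20000 (7.07%, 4.62 to 10.7%, against 4.99%). In each of these 4 ranges the interval of the window included the share of the list. Without the region that chose the window, 28 of 313 regions of all rows (8.95%, 6.26 to 12.6%) had a partner. When at least 50% of both regions had to be shared, 11 of 314 had one (3.50%, 1.97 to 6.16%), and the interval then included the share of the list, 2.28%.

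In the other direction 30 of the 315 SB431542 regions (9.52%, 6.75 to 13.3%) overlapped a DMSO region, against 6.39% of the SB431542 list. Of its first 20000 rows 9 of 28 did (32.1%, 17.9 to 50.7%), against 15.1%. Without row 670, the partner of the region that chose the window, the counts were 29 of 314 (9.24%, 6.51 to 12.9%) and 8 of 27 (29.6%, 15.9 to 48.5%). The 22 first-20000 DMSO regions without a partner lay 0.056 to 17.3 kb (median 2.70 kb) from the nearest SB431542 region, and 3 of them within 0.5 kb. Since neither the depth nor the calling threshold is known, the absence of a region is not a measured loss.

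The 29 DMSO regions and their partners made 30 overlapping pairs, which shared 2 to 508 bp (median 124 bp). In 5 pairs both rows were in the first 20000: rows 5 and 670, 80 and 785, 152 and 3541, 4359 and 1822, and 6415 and 736, each given as the row in DMSO and then in SB431542. These 5 make up 16.1% of the 31 DMSO regions (7.09 to 32.6%) and 17.9% of the 28 SB431542 regions (7.88 to 35.6%), against 6.04% and 6.09% for the first 20000 rows of the whole lists. The pair of rows 5 and 670 holds the region that chose the window. Without it the shares were 4 of 30 (13.3%, 5.31 to 29.7%) and 4 of 27 (14.8%, 5.92 to 32.5%). Both intervals then include the share of the list. In 5 more pairs only the DMSO row was that high, in 4 only the SB431542 row, and in 16 neither. DMSO regions with a partner had a median width of 299 bp, and those without 199 bp.

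**Figure D3:**
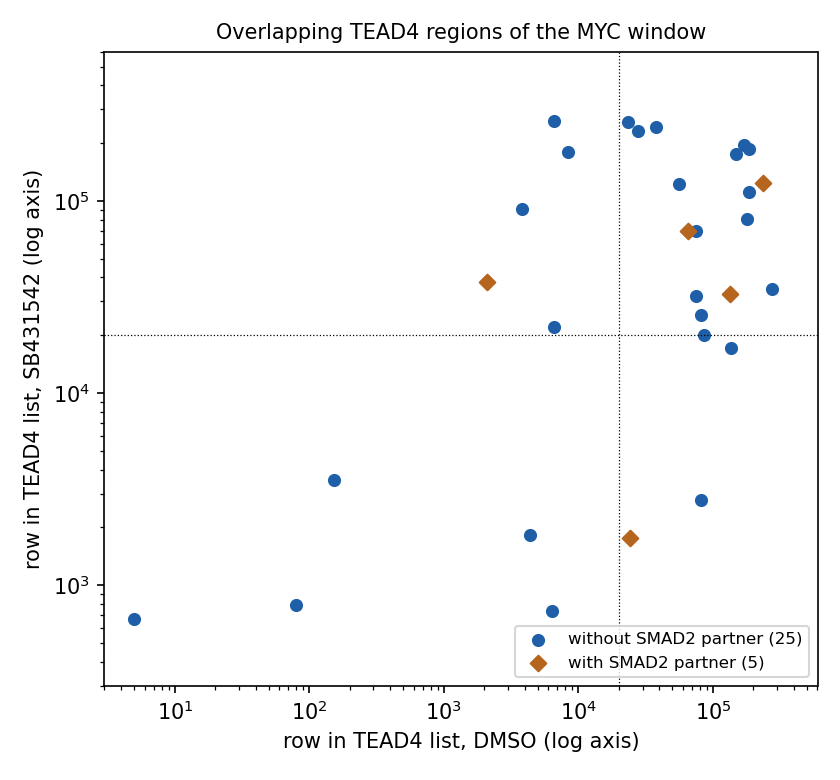
Rows of the 30 overlapping pairs of TEAD4 regions, with the row in the DMSO list on the x axis and in the SB431542 list on the y axis (both log axes); dotted lines mark row 20000 and diamonds are pairs whose DMSO region also overlapped SMAD2. The 5 pairs at the lower left have both rows in the first 20000, and none of them is a diamond.

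The second comparison asked how far TEAD4 and SMAD2 shared sites in DMSO cells around MYC. A SMAD2 region overlapped 26 of the 314 TEAD4 regions (8.28%, 5.71 to 11.9%), against 7.67% of the list, and of the 459 SMAD2 regions 26 (5.66%, 3.89 to 8.17%) overlapped a TEAD4 region, against 5.29%. Both shares are near those of the whole lists. Among the first 20000 rows, 3 of the 31 TEAD4 regions (9.68%, 3.35 to 24.9%) overlapped SMAD2, against 10.4%. They were rows 553, 1118 and 2101, and their SMAD2 partners stood at rows 381836, 335495 and 32764. By rows of the TEAD4 list the counts were 1 of 4 up to row 1000 (12% over the list), 2 of 9 from row 1001 to 5000 (11.6%), 0 of 18 from row 5001 to 20000 (9.93%; 3 counts, the limit for a count of 0, would be 16.7%) and 23 of 283 past row 20000 (8.13%, 5.48 to 11.9%, against 7.46%). No pair had both rows in the first 20000: 0 of 31, which allows a share of up to 9.68% at 3 counts, against 0.705% of the first 20000 rows of the TEAD4 DMSO list.

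The distance from TEAD4 to the nearest SMAD2 region was near that of the whole lists. Of the 28 first-20000 TEAD4 DMSO regions without a SMAD2 partner, 7 lay within 0.5 kb of a SMAD2 region (25%, 12.7 to 43.4%), against 15.2% over the list. The regions of rows 2980 and 7412 were 1 bp from one, the smallest distance the 50 bp grid allows between separate regions. Over all 314 regions the median distance to the nearest SMAD2 region was 1.63 kb, against 1.80 kb over the list, and 36.9% lay within 1 kb of one, against 34.2%. Among the 31 the median was 1.85 kb, against 1.80 kb over the first 20000 rows of the list.

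**Figure D4:**
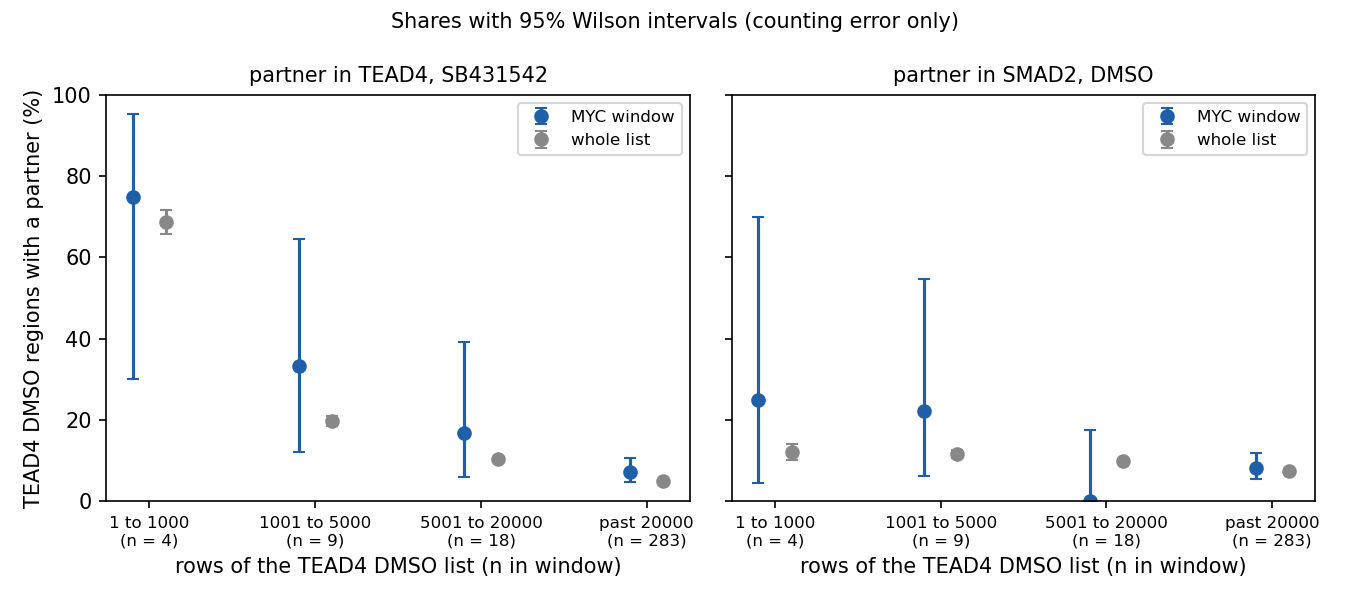
Share of TEAD4 DMSO regions with a partner in the SB431542 TEAD4 list (left) or in the SMAD2 list (right), by row in the TEAD4 DMSO list, for the window (blue) and the whole list (grey), with 95% Wilson intervals. On the left the share falls from 3 of 4 regions in rows 1 to 1000 to 20 of 283 past row 20000, and on the right the window's intervals include the list's value in each range.

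The 18 SMAD2 regions of high rank lay about as far from TEAD4 as those of the whole list. Their median distance to the nearest TEAD4 DMSO region was 3.28 kb, against 3.15 kb over the first 20000 rows of the SMAD2 list, and 27.8% lay within 1 kb of one, against 25.1%. The highest was at 128241201 to 128241499 (299 bp, row 188), 507 kb before the MYC start and 8.20 kb from the nearest TEAD4 DMSO region. It was followed by 129436851 to 129437099 (249 bp, row 867), 689 kb past the start, and 128517401 to 128517599 (199 bp, row 1073), 231 kb before it. These were 5.65 and 7.60 kb from the nearest TEAD4 DMSO region, and that of row 867 was 0.123 kb from an SB431542 region.

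Of the 18 SMAD2 regions in the first 20000 rows, 2 overlapped a TEAD4 DMSO region (11.1%, 3.10 to 32.8%, against 7.29% over the list). One lay at 128785051 to 128785249 (row 11500), with TEAD4 at row 43049, and the other at 128867301 to 128867649 (row 17429), with TEAD4 at row 24139. Overlap with TEAD4 in SB431542 cells was found for 3 of the 18 (16.7%, 5.84 to 39.2%, against 4.78%): row 17429, row 8187 (128253251 to 128253599) and row 9070 (130194551 to 130194799), with partners at rows 1755, 88449 and 82327. The others lay at 128045201 to 128045549 (row 14809), 128557501 to 128557749 (row 14768), 128905851 to 128906099 (row 17281), 129000151 to 129000349 (row 13432), 129004651 to 129004849 (row 9071), 129038751 to 129039099 (row 11289), 129878301 to 129878499 (row 19965), 130305051 to 130305549 (row 9874), 130520851 to 130521099 (row 18239), 130698551 to 130698849 (row 5690) and 130738551 to 130738699 (row 5823). The region of row 9874 was, at 499 bp, the widest SMAD2 region of the window.

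SMAD2 regions of DMSO cells also met TEAD4 regions called after SB431542. Of the 459 SMAD2 regions 22 had such a partner (4.79%, 3.19 to 7.15%), against 3.39% of the SMAD2 list, and of the 315 TEAD4 regions 22 overlapped SMAD2 (6.98%, 4.66 to 10.3%), against 5.46%. Both intervals include the share of the list. Among the first 20000 SB431542 rows 2 of 28 overlapped SMAD2 (7.14%, 1.98 to 22.6%, against 6.34%). These were row 1755 and row 1635, whose SMAD2 partner stood at row 83045.

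A partner in both other lists was found for 5 of the 314 TEAD4 DMSO regions (1.59%, 0.682 to 3.67%), against 0.516% of the list. The 2 partners of a region did not have to overlap each other. The interval lies above the share of the list, but rests on 5 regions. One is the region of row 2101 upstream of MYC. Another lay 119 kb past the MYC start. There a SMAD2 region (128867301 to 128867649, row 17429) and a TEAD4 region of SB431542 cells (128867320 to 128867733, row 1755) both fell wholly within the TEAD4 DMSO region at 128867101 to 128867799 (699 bp, row 24139). The midpoints were 25 and 76.5 bp from that of the DMSO region. The run of this DMSO row spans rows 23910 to 26454, so the whole run lies past row 20000. The remaining 3 were TEAD4 DMSO regions at 128879601 to 128879849 (row 134178), 129418851 to 129419099 (row 65302) and 130103851 to 130104049 (row 234465). Their SMAD2 partners stood at rows 194285, 308731 and 158503 and their SB431542 partners at rows 32826, 70124 and 124807, all past row 20000. Those of rows 24139 and 134178 stood 119 and 131 kb past the MYC start, in the dense 100 kb bin.

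**Figure D5:**
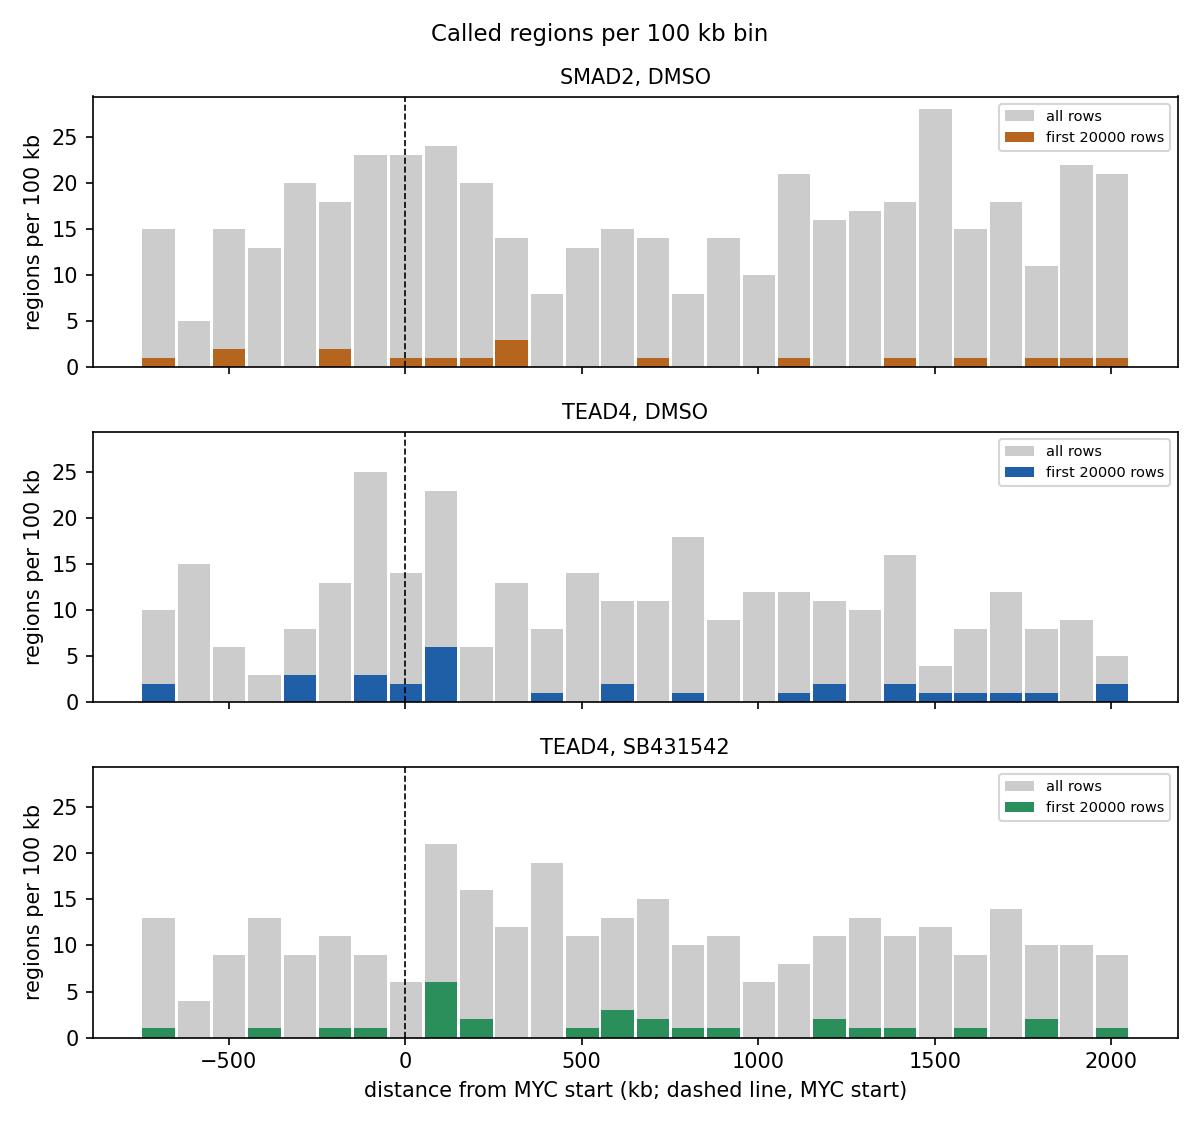
Called regions per 100 kb bin along the window for each list, as bars from 0 against distance from the MYC start in kb, with all rows in grey and the first 20000 rows in colour. The bin that begins 51.7 kb past the MYC start has 6 coloured regions in both TEAD4 lists and 1 in the SMAD2 list.

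Along the window, SMAD2 had 5 to 28 regions per 100 kb bin (median 15.5), TEAD4 in DMSO 3 to 25 (median 11) and TEAD4 in SB431542 4 to 21 (median 11). TEAD4 in DMSO had its highest count, 25, in the bin from 128600000, upstream of MYC, where SMAD2 had 23 and TEAD4 in SB431542 had 9. SMAD2 reached 28 in the bin from 130200000, where TEAD4 had 4 in DMSO and 12 in SB431542. Of the 28 bins, only that from 128800000 had more than 20 regions in every list (24, 23 and 21, the highest count of TEAD4 in SB431542 and the next to highest of the other two). The limit of 20 was set with these counts known, so it only describes the bin from 128800000. Bins without any first-20000 region numbered 14 for SMAD2, 12 for TEAD4 in DMSO and 11 for TEAD4 in SB431542.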

How the data were processed

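The lists of called regions that the authors deposited for SMAD2 (DMSO cells) and TEAD4 (DMSO and SB431542 cells) were used. Each has 3 columns and no header: chromosome, start and end in bp. Per the submitters' processing notes, positions are on hg19. Which aligner, caller, threshold and control were used is not given in the sources used here. The sequencing depth is unknown, and no occupancy level was computed. The target and treatment in each list's name matched the title of 1 sample.

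Starts were raised by 1 bp for printing, and widths are end minus start. Regions with at least 1 bp in common were called partners, and where a region had several the one with the lowest row is given. Named regions are all of the window in the first 20000 rows of a list with their partners, the nearest to the MYC start, those in MYC, and those within 10 kb of the TEAD4 region of row 5, with the first 5 TEAD4 DMSO rows for comparison. Members and rules were chosen with earlier results of these data known. Densities use the span from the first to the last region of each chromosome. The functions for overlap, distance and runs were checked on simulated regions with known answers. Python 3.11.15, NumPy 2.4.6, pandas 2.3.3 and matplotlib 3.10.9 were used.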

Additional observations from a re-analysis of the deposited data

How the results depend on the processing

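The 4 overlap shares come in this order: TEAD4 DMSO with an SB431542 partner, SB431542 with a DMSO partner, TEAD4 DMSO with a SMAD2 partner, SMAD2 with a TEAD4 DMSO partner. An overlap of 50% of both regions gave 3.50, 3.49, 3.50 and 2.40%, and the first 20000 rows of each list gave 16.1, 17.9, 0 and 0%. With midpoints within 100 bp the first pair fell to 5.41 and 5.40%. In the first 50% of rows the last pair fell to 5 and 3.25%. Without the widest 1% of regions the first pair fell to 6.62% (20 of 302, against 29 of 314) and 6.51% (20 of 307, against 30 of 315). The first of these lay just above the lower end of its interval, 6.51%, and the second below its own. The rule of 50% of both regions lowers a share by construction, and shorter lists lower a count. A shorter list can move a share either way: in the first 50% of rows the first pair was 11.25 and 10.4%. The cause of the higher shares between the TEAD4 lists in the first 20000 rows was not tested. Over the whole lists the 4 shares with 50% of both regions were 2.28, 2.51, 2.50 and 1.72%, each within the interval of the window. In the order SMAD2, TEAD4 in DMSO, TEAD4 in SB431542, the window held 246, 160 and 173 regions of the first 50% of rows, 3, 13 and 12 of the first 5000 rows, and 46, 75 and 76 of the first 50000. With the first 7% of rows SMAD2 had 30. The nearest region to the MYC start moved to 36.7, 12.2 and 64.1 kb in the first 20000 rows, and for SMAD2 and TEAD4 in SB431542 to 5.27 and 27.6 kb in the first 50% of rows. In 28 planned settings the value moved. In 20 planned settings, the 6.62% above among them, the value stayed within its interval or within 1.5 times. It also stayed so in 15 settings chosen after seeing the data: ends read as inclusive, the limit moved to the end of its run, and the region that chose the window left out. No paired analysis was possible because there is only 1 library a group, so none can be left out or matched.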

Other observations

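The longest stretches of the window without a called region differed between the lists: 103 kb in the TEAD4 list of DMSO cells, 58.2 kb in the SMAD2 list and 46.2 kb in the TEAD4 list of SB431542 cells. The first 20000 rows, though alike in number, hold different shares of the lists (4.76% for SMAD2, 6.91 and 7.63% for TEAD4 in DMSO and SB431542), which bears on any count of high rows set side by side.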
